A study of Mus musculus with 6 samples.

Results

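The region described here is the ribosomal DNA copy that the mouse build mm10 carries on chromosome 17, in a window of 10 kb that also takes in both flanks. The window was divided into 200 bins of 50 bases, and free DNA ends were counted by bin and strand, which gave 400 members. Of these, 241 held at least 1 end in the 6 libraries together, and 44 (40 on the minus strand, 4 on the plus strand) had at least 10 ends in at least 2 libraries, among 768 bins by strand of the whole genome that did. The region was chosen by its number of ends in these data, being one of 26 windows of 10 kb with over 20 times the median, so its high total over the libraries is a description and not a result.

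Free ends were mapped by BLISS, an assay that ligates an adaptor to each blunted DNA break end inside the fixed nucleus and reads the sequence next to it after amplification as RNA. Forebrain neurons were sorted from CK-p25 mice, and all 3 groups, Step2, Step1 and Con, with 2 libraries each, carry the same genotype label and the same 2 weeks of induction by taking doxycycline out of the diet. In this line a Camk2a promoter drives the transactivator that switches on p25, an activator of the kinase Cdk5, so p25 is made mainly in forebrain excitatory neurons. The labels do not say what Step2, Step1 and Con stand for, nor whether the 2 libraries of a group come from different animals, so a p-value here reflects the spread of 2 libraries per group, and that spread may be purely technical. The label neurons could not be checked, because DNA ends do not show a cell type.

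Ribosomal RNA genes stand in long tandem arrays on several chromosomes and are heavily transcribed in the nucleolus by RNA polymerase I. The primary transcript begins with an external spacer, followed by the small-subunit rRNA and, after an internal spacer, by the other rRNAs. An assembly holds only a few of the near-identical copies, so ends from any copy can be placed on the same bases, and the values below belong to the repeat family rather than to a single locus.

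In the GENCODE annotation (release M21) the copy is covered by the noncoding genes Gm26917 (chr17:39843013-39846341, plus strand) and Gm42418 (chr17:39846958-39848788, plus strand), and by CT010467.1 (chr17:39846353-39848827, minus strand), which is typed as rRNA. A short noncoding gene, AY036118, lies inside CT010467.1 at chr17:39847113-39848035 on the minus strand. RefSeq places Rn18s-rs5, a pseudogene related to the small-subunit rRNA, at chr17:39846354-39848202 on the plus strand. The rRNA orientation is therefore taken as the plus strand here, with Gm26917 before the small-subunit sequence and the last part of Gm42418 after it. The annotated copy from the start of Gm26917 to the end of CT010467.1 spans 5815 bases with a G+C content of 65.0%, against 38.8% in the 3012 bases to its left and 37.0% in the 1173 bases to its right.

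The 8 single positions with the most ends over the 6 libraries were all on the minus strand, opposite to the rRNA. Their surroundings are shown because the bases just before the end differed with the group in which a position was densest. Each sequence is the minus strand of mm10, read 5′ to 3′, from 20 bases before the end to the first 20 bases of the read. The capitals mark the last 5 bases before the end, and the read starts at the first small letter after them.
End at 39844426, densest in Step1 (chr17:39844407-39844446): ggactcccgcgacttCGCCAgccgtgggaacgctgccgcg
End at 39846123, densest in Step1 (chr17:39846104-39846143): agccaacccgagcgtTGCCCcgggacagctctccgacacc
End at 39848608, densest in Step2 (chr17:39848589-39848628): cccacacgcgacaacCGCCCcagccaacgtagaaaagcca
End at 39844481, high in Step2 and Step1 (chr17:39844462-39844501): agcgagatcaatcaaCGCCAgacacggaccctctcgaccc
End at 39845256, densest in Con (chr17:39845237-39845276): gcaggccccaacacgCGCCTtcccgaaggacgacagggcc
End at 39844695, densest in Con (chr17:39844676-39844715): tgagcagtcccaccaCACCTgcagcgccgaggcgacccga
End at 39847073, densest in Con (chr17:39847054-39847093): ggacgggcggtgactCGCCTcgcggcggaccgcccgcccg
End at 39845286, densest in Con (chr17:39845267-39845306): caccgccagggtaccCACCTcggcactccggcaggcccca
All 8 ends thus followed a pair of C bases and 1 further base, which was T at the 4 positions densest in Con and A or C at the other 4.

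The libraries held 1526487 and 1480461 reads in Step2, 2403238 and 2043098 in Step1, and 2300995 and 2273508 in Con. The copy took 1397 and 1880 of them in Step2, 3826 and 3335 in Step1, and 1660 and 2756 in Con. As shares of the reads on chromosomes 1 to 19 and X these were 0.0915% (95% Wilson interval 0.0869 to 0.0965) and 0.127% (0.121 to 0.133) in Step2, 0.159% (0.154 to 0.164) and 0.163% (0.158 to 0.169) in Step1, and 0.0722% (0.0689 to 0.0758) and 0.122% (0.117 to 0.126) in Con. Both Step1 libraries lay above the other 4, while Step2 and Con overlapped, and the Con libraries differed from each other by far more than counting error. Intervals of this kind cover counting error only, and they take each read as a separate end.

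Scaled to CPM, the ends per 1000000 reads outside the piled-up windows, the copy averaged 1142 ± 261 CPM in Step2, 1698 ± 28.3 in Step1 and 1008 ± 360 in Con (SD, n = 2 each). In the limma-voom fit over 128048 windows of 10 kb, the total was 0.80 ± 0.15 higher on the log2 scale (standard error) in Step1 than in Con, with a Benjamini-Hochberg adjusted p = 0.0629 that misses 0.05. It was 0.21 ± 0.17 in Step2 against Con (limma adjusted p = 0.988) and -0.59 ± 0.16 in Step2 against Step1 (limma adjusted p = 1.00). Of all windows 4, 8 and 6 were called in Step1 against Con, Step2 against Con and Step2 against Step1, which is 0.00312%, 0.00625% and 0.00469%. The Step1 total rested on a single position: without 39844426 the difference from Con was -0.24, and with 1 read per position it was also -0.24 (limma adjusted p = 0.868 and 0.790). It was called with reads of mapping quality 30 or more (1.12, limma adjusted p = 8.6e-05) and without Con replicate 2 (1.17, limma adjusted p = 1.3e-13). Over all alternatives for Step1 against Con the difference ran from -0.24 to 1.17 and the adjusted p from 1.3e-13 to 1.00.

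**Figure D1:**
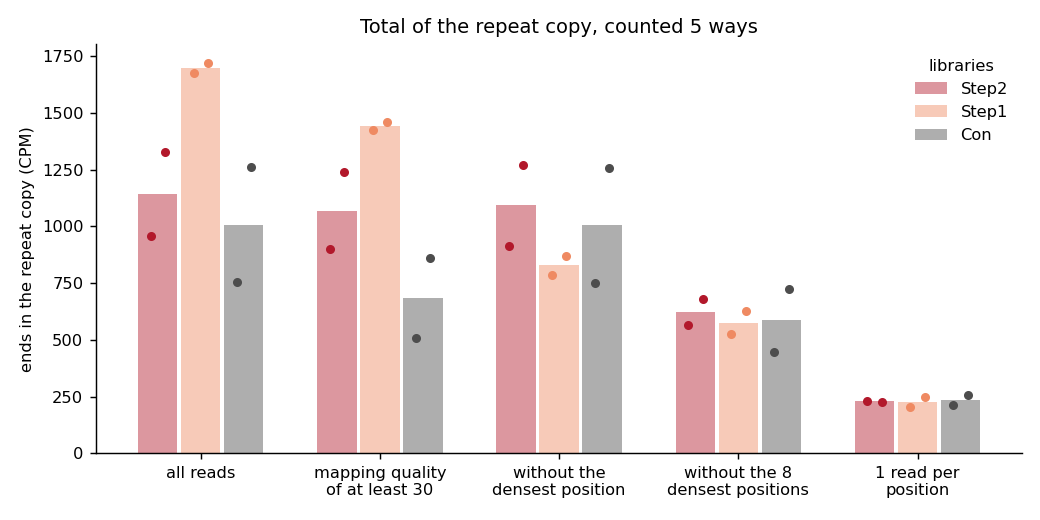
Ends in the repeat copy (y axis, CPM with the same library size throughout) in Step2, Step1 and Con libraries, counted 5 ways; points are libraries and bars are group means of 2 libraries. With all reads both Step1 libraries lie above the other 4, and without the densest position, without the 8 densest positions or with 1 read per position they do not.

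Counting 1 read per position left 338 and 323 distinct positions in Step2, 470 and 486 in Step1, and 470 and 564 in Con. Ends were therefore stacked, at 4.13 and 5.82 reads per position in Step2, 8.14 and 6.86 in Step1, and 3.53 and 4.89 in Con. A single position held 27.9% and 35.5% of the copy's ends in Step2, 53.1% and 49.3% in Step1, and 21.3% and 21% in Con. This leading position was the same in both libraries of a group and different in each group: 39848608 in Step2, 39844426 in Step1 and 39845256 in Con. Over all libraries the 8 densest positions held 54.4% of the 14854 ends, and the ninth held 231 ends.

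Nearly all ends fell on the annotated copy, with 36 in the left flank and 7 in the right flank over all libraries. Gm26917 held 47.7% and 43.2% of the ends in Step2, 89.6% and 85.1% in Step1, and 66.7% and 63.7% in Con. Gm42418 held 48.0% and 52.3% in Step2, 7.76% and 10.9% in Step1, and 26.8% and 28.5% in Con. The 3 groups did not overlap in either gene. The Gm26917 share was largest in Step1, where position 39844426 in that gene alone held 53.1% and 49.3% of the copy's ends. The Gm42418 share was largest in Step2. Most of the Step2 ends in Gm42418 lay at a single position, 39848608, with 390 of 670 and 668 of 984. That position alone held 27.9% and 35.5% of the copy's ends in Step2. Both values are above the 22.5 percentage points by which the Gm42418 share differed from Con. The Step2 shares were not compared without that position, so a shift of the rest of the gene is not shown. The Gm42418 share differed by 22.5 percentage points in Step2 against Con, by -18.3 in Step1 against Con and by 40.8 in Step2 against Step1. Each of these gave p = 0.33 in an exact two-sided permutation test (n = 2 each), the smallest this design allows. With 1 read per position the shares came together, at a mean of 28.1% in Step2, 27.4% in Step1 and 30.4% in Con. The Step2 excess lay past the small-subunit sequence, because Rn18s-rs5 itself held 17.6% and 15.3% of ends in Step2, 8.81% and 13.1% in Step1, and 24.9% and 28.3% in Con.

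**Figure D2:**
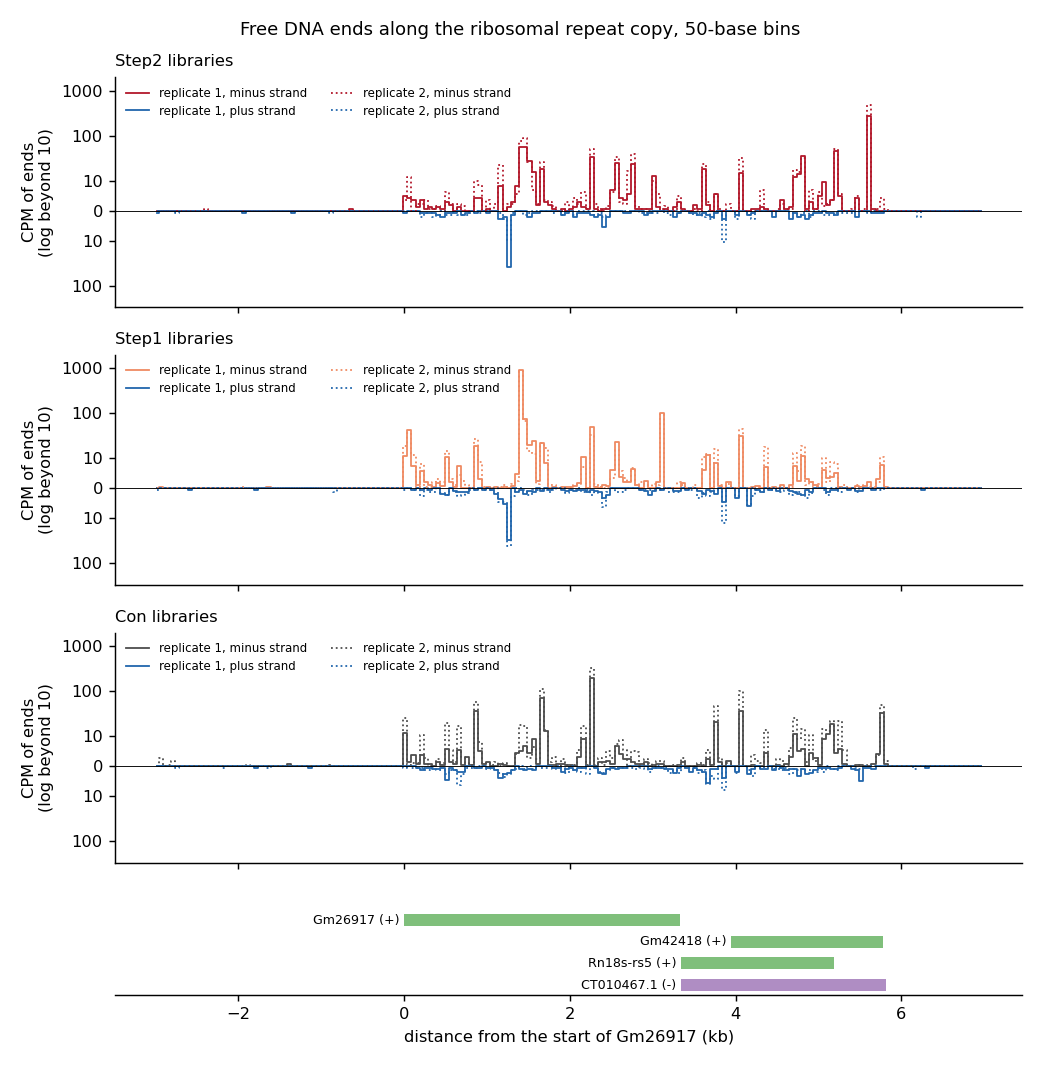
CPM in 50-base bins along the copy (x axis, distance from the start of Gm26917 in kb; y axis linear up to 10 and logarithmic beyond), for both replicates of Step2, Step1 and Con, with the minus strand upward and the plus strand downward in blue; bars at the bottom are annotated genes with their strand. The flanks are nearly empty, both replicates of a group follow the same peaks, and the tallest peak stands at a different place in each group.

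The ends were strongly one-sided. The minus strand held 87.2% and 93.2% of ends in Step2, 93.2% and 90.9% in Step1, and 85.5% and 90.1% in Con, with 95% Wilson intervals from 83.8% to 94.3%. The groups overlapped, and the plus-strand share differed by -2.42 percentage points in Step2 against Con, -4.23 in Step1 against Con and 1.82 in Step2 against Step1 (exact permutation p = 0.67, 0.33 and 1.00). The excess was smaller among distinct positions, of which 64.8% and 69.3% were on the minus strand in Step2, 63.8% and 62.3% in Step1, and 55.7% and 61.3% in Con. Of 67 positions with at least 10 ends in some library, 65 were on the minus strand.

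One-sidedness of this degree was not peculiar to the copy: 18 of the 26 piled-up windows, this one included, had over 90% of their ends on 1 strand. Ends in bodies of protein-coding genes were nearly balanced, with 51.7% to 52.8% on the strand opposite to the gene in all 6 libraries. The nuclear noncoding RNA gene Malat1 had 89.8% and 98.2% on the opposite strand in Step2, 92.1% and 97.2% in Step1, and 98.1% and 99.7% in Con. The mitochondrial large-subunit rRNA gene mt-Rnr2 had 84.0% and 89.1% in Step2, 86.9% and 86.7% in Step1, and 85.2% and 87.5% in Con. The mitochondrial small-subunit rRNA gene mt-Rnr1 was less one-sided, with 8 of 23 and 19 of 22 ends in Step2, 69.7% and 71.4% in Step1, and 71.9% and 71.8% in Con, and in 1 Step2 library most of its ends lay on the gene's own strand. The noncoding RNA gene Meg3 had 78.1% and 88.9% in Step2, 79.2% and 86.9% in Step1, and 88.6% and 92.6% in Con. These are descriptions, and no test was made between them.

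A double-strand break leaves an end on each side, so facing ends on both strands were looked for. Of 763 distinct plus-strand positions, 123 had a minus-strand end at the base just before, against a median of 124 over all offsets within 30 bases (range 103 to 158). The count at the spacing of a break with flush ends was thus no higher than the median over these spacings. Blunting can place the 2 ends of a break at other spacings, which belong to the same comparison. No conclusion on breaks is therefore drawn from this count. The largest count, 158, was found with the minus-strand end 2 bases before the plus-strand position. Positions were pooled over the 6 libraries, so the 2 ends of a pair may come from different libraries.

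The densest position of all, 39844426 in Gm26917, had 43.2 and 54.3 CPM in Step2, 891 and 847 in Step1, and 0.908 and 3.21 in Con. As reads these were 63 and 77 in Step2, 2032 and 1645 in Step1, and 2 and 7 in Con. The groups did not overlap, and the Step1 libraries lay close together. Pooled over libraries the Step1 level was 424-fold that of Con (exact interval 223 to 929, counting error only), and the Step2 level was 23.7-fold that of Con (12.1 to 53.0). The exact intervals here and below take each read as a separate end. Whether reads stacked on 1 position are amplified copies of fewer ends was not tested.

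A second Step1 position, 39846123 near the end of Gm26917, had 0 and 0.705 CPM in Step2, 100 and 95.8 in Step1, and 0 and 0 in Con. Its 414 reads in Step1 stood against 1 in Step2 and none in Con. The Step1 level was at least 143-fold that of Con, taking a floor of 3 reads over the Con group.

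The leading Step2 position, 39848608, lies in Gm42418 past the end of Rn18s-rs5. It had 390 and 668 reads in Step2, 2 and 1 in Step1, and 0 and 0 in Con, or 267 and 471 CPM in Step2. Pooled, the Step2 level was 518-fold that of Step1 (exact interval 177 to 2514) and at least 538-fold that of Con, with the same floor. With all reads, position 39844481, close to the Step1 peak, was dense in both, with 55.5 and 83.9 CPM in Step2, 71.9 and 62.8 in Step1, and 3.63 and 11.9 in Con. Its reads of mapping quality 30 or more were 80 of 81 and 114 of 119 in Step2. They were 25 of 164 and 23 of 122 in Step1, and 1 of 8 and 12 of 26 in Con, so the likeness of Step2 and Step1 here rests on Step1 reads of lower quality.

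The 4 remaining positions were lowest in Step2 and highest in Con, although at 39847073 Step1 overlapped Con. Position 39845256 had 12.3 and 14.8 CPM in Step2, 29.4 and 20.1 in Step1, and 160 and 265 in Con. Its reads had a mean mapping quality of 23.3, so few counted under a minimum of 30. Position 39844695 had 2.06 and 5.64 CPM in Step2, 10.1 and 7.21 in Step1, and 70.8 and 108 in Con. At 39847073, in Gm42418, the values were 8.91 and 14.8 in Step2, 30.7 and 44.3 in Step1, and 35.8 and 99.8 in Con. At 39845286 they were 2.06 and 1.41 in Step2, 18.0 and 12.9 in Step1, and 37.2 and 47.6 in Con.

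**Figure D3:**
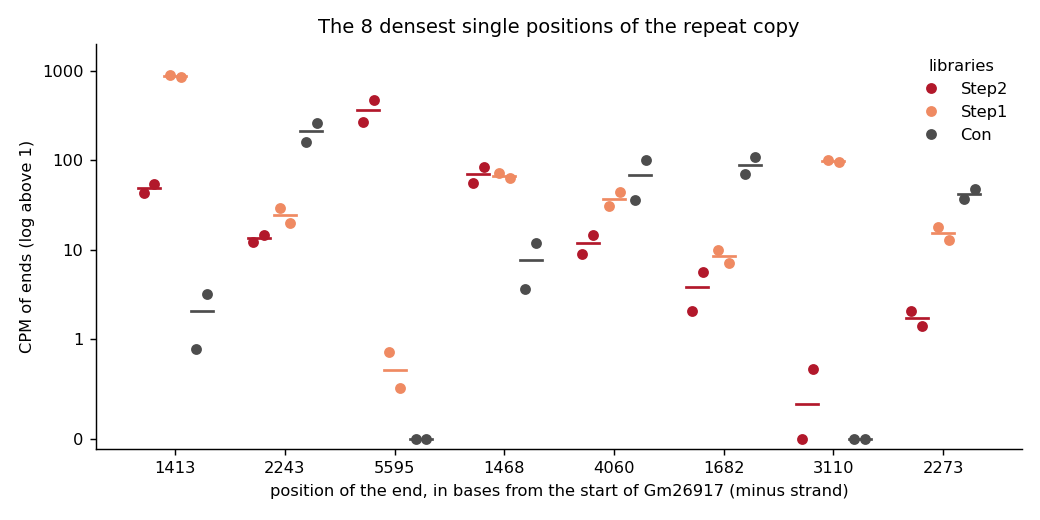
CPM (y axis, linear below 1 and logarithmic above) at the 8 densest positions, all on the minus strand, named by their distance in bases from the start of Gm26917 (x axis); points are libraries and short lines are group means of 2 libraries. Position 1413 is 39844426, led by Step1, position 5595 is 39848608, led by Step2, and position 2243 is 39845256, led by Con.

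Each position appeared in both sequencing runs that the read names show. At 39844426 the Step1 libraries had 932 and 819 reads from the first run and 1100 and 826 from the second. At 39848608 the Step2 libraries had 137 and 291 from the first run and 253 and 377 from the second. At 39845256 the Con libraries had 118 and 193 from the first run and 235 and 386 from the second. Reads ending at one position also differed in length, with 13 and 13 distinct lengths at 39844426 in Step1 and 13 and 15 at 39848608 in Step2. Other positions had fewer, with 4 and 5 lengths over 228 and 186 reads at 39846123 in Step1. At 39845286 in Con there were 4 and 2 lengths over 82 and 104 reads.

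Libraries of a group were more alike along the copy than libraries of different groups, though not clearly so with 1 read per position. Over the 115 minus-strand bins that lie fully on the copy, Pearson's r of log2(CPM + 1) was 0.90 to 0.94 within groups (3 pairs) and 0.48 to 0.69 between groups (12 pairs). With the 8 densest positions left out it was 0.86 to 0.89 within groups and 0.41 to 0.72 between groups. Other dense positions stayed in, as the 67 positions with at least 10 ends in some library held 77.7% of all ends and the 8 densest held 54.4%. With 1 read per position the ranges met, at 0.71 to 0.80 within groups and 0.54 to 0.72 between groups. Of the 10 densest positions of each library, 8 to 9 were shared within a group and 0 to 4 between groups. The points of these correlations are bins of the same libraries and share their base composition, so no p is given.

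The fit over all 768 bins by strand tested these shifts against the spread between libraries. In Step1 against Con, 6 of the 44 members tested were called at a limma adjusted p under 0.05, 3 higher and 3 lower, or 13.6%. Of all 768 bins 18 were called, or 2.34%, with 1.43% called higher and 0.911% called lower. The median log2 difference was -0.04 over the members tested and -0.37 over all bins. All 6 called members were on the minus strand. Of the 44 members, 3 passed the filter of 10 reads only through the Step2 libraries, 6 only through Step1 and 6 only through Con, so those that passed through the group where they are high had to differ. Where such a bin was called higher in that group its reads are a description and the call supports nothing. This holds for 1 of the 6 called here, 0 of the 9 called in Step2 against Con and 3 of the 5 called in Step2 against Step1.

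The bin starting at 39844401, which holds the leading Step1 position, had 80 and 110 reads in Step2, 2111 and 1697 in Step1, and 11 and 38 in Con. It rose in Step1 by a log2 difference of 6.56 ± 0.44 against Con (limma adjusted p = 0.000109). The neighbouring bin at 39844451 rose by 2.73 ± 0.43 (limma adjusted p = 0.0176). The bin at 39846101, which passed the filter only through Step1, had 0 and 1 reads in Step2, 238 and 192 in Step1, and 2 and 4 in Con. The bin at 39845251 had 50 and 70 reads in Step2, 116 and 65 in Step1, and 440 and 699 in Con. Of these Con reads, 353 and 579 lay at position 39845256, where 4 and 7 had a mapping quality of 30 or more. The bin at 39845251 fell in Step1, with a log2 difference of -2.59 ± 0.32 (limma adjusted p = 0.00588). So did the bins at 39848751, with -2.14 ± 0.41 (limma adjusted p = 0.0351), and 39844651, with -2.0 ± 0.30 (limma adjusted p = 0.0153). Pooled over libraries, the bin at 39848751 had 6 reads in Step2, 39 in Step1 and 183 in Con. Its log2 difference in Step2 against Con was -5.07 (limma adjusted p = 0.187).

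In Step2 against Con, 9 of the 44 members tested were called by limma, 6 higher and 3 lower, or 20.5%. Of all 768 bins 23 were called, or 2.99%, with 1.82% higher and 1.17% lower. The members' median log2 difference was -0.52 and that of all bins -0.50. The bin at 39845751 had 34 and 56 reads in Step2, 15 and 13 in Step1, and 3 and 11 in Con, and rose in Step2 by 3.41 ± 0.69 (limma adjusted p = 0.0439). The bin at 39848201, at the end of Rn18s-rs5, had 65 and 73 reads in Step2, 12 and 16 in Step1, and 10 and 12 in Con, and rose by 3.21 ± 0.41 (limma adjusted p = 0.00733). The other named rises were at 39844501, by 2.85 ± 0.48, at 39844401, by 2.78 ± 0.49, and at 39844451, by 2.70 ± 0.44. The 3 lower bins were at 39843851, with a log2 difference of -2.78 ± 0.58, at 39845251, with -2.61 ± 0.35, and at 39844651, with -2.01 ± 0.33 (limma adjusted p from 0.00733 to 0.0467 over the 9 called bins).

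Step2 and Step1 are both set against the same 2 Con libraries, and their values are given side by side for that reason. Of the bins called in both, 39844401 had a log2 difference from Con of 2.78 in Step2 and 6.56 in Step1, 39844451 of 2.70 in Step2 and 2.73 in Step1, 39844651 of -2.01 in Step2 and -2.0 in Step1, and 39845251 of -2.61 in Step2 and -2.59 in Step1. The bin at 39844451 holds position 39844481, where 25 of 164 and 23 of 122 Step1 reads had a mapping quality of 30 or more. The bin at 39845251 holds position 39845256, where 4 of 353 and 7 of 579 Con reads did. Of the bins called in Step2 alone, 39843851 had -2.78 in Step2 and -1.0 in Step1, and 39848201 had 3.21 in Step2 and 0.36 in Step1. The others were also higher than Con in Step1. The bin at 39844501 had 2.85 in Step2 and 2.22 in Step1 (limma adjusted p = 0.0558 in Step1). The bin at 39845751 had 3.41 in Step2 and 1.25 in Step1, and the bin at 39845551 had 1.99 in Step2 and 1.42 in Step1. The bin with the leading Step2 position, 39848601, passed the filter only through Step2 and had 394 and 671 reads in Step2, 5 and 1 in Step1, and 0 and 1 in Con. It missed the threshold in Step2 against Con (limma adjusted p = 0.108), where 1 Con read leaves the pooled ratio at 1624-fold with an exact interval from 291 to 64216.

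In Step2 against Step1, 5 of the 44 members tested were called by limma, 2 higher and 3 lower, or 11.4%. Of all 768 bins 18 were called, or 2.34%, with 0.651% higher and 1.69% lower, and the median log2 difference was -0.51 over the members tested and -0.20 over all bins. The bin at 39848201 rose in Step2 by 2.84 ± 0.37 (limma adjusted p = 0.00568), and the bin at 39844401 fell in Step2, with a log2 difference of -3.78 ± 0.27 (limma adjusted p = 0.000146). The other 3 called bins had passed only through the group where they were high. They were 39848601, and 39843051 and 39846101, both high in Step1. The bin at 39843051 had 6 and 17 reads in Step2, 96 and 71 in Step1 and 3 and 1 in Con. At 39846101 the pooled Step1 level was 293-fold that of Step2 (exact interval 52.3 to 11597, counting error only).

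**Figure D4:**
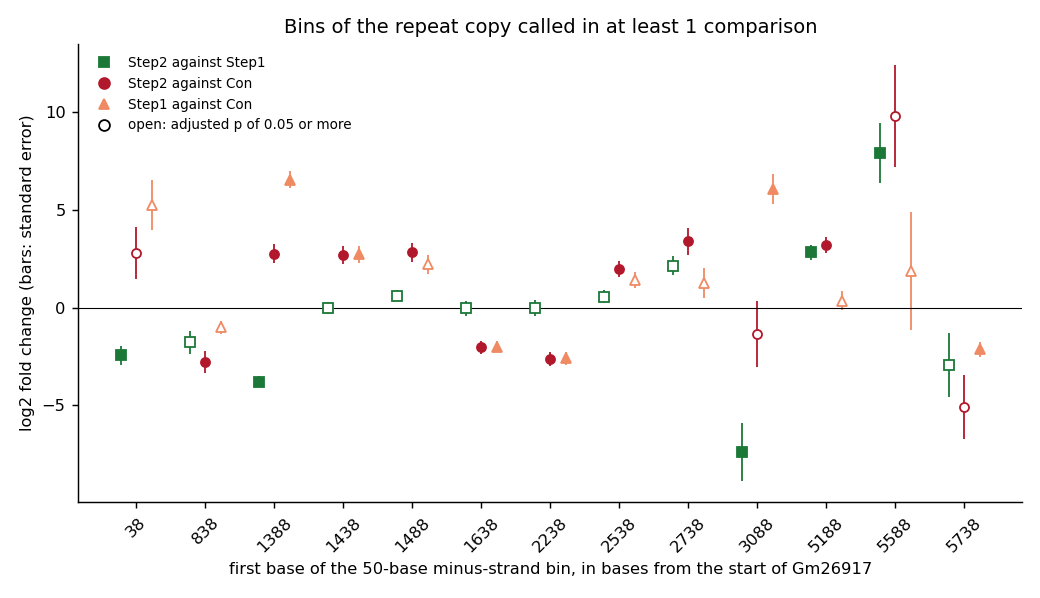
Log2 fold change with its standard error (y axis) of the 13 minus-strand bins called in at least 1 comparison, named by the distance of their first base from the start of Gm26917 (x axis); filled symbols have a limma adjusted p under 0.05. The bins at 38 and 3088 passed the count filter only through Step1 and the bin at 5588 only through Step2, so their large differences are a description; at 1388 the log2 difference from Con is 2.78 in Step2 and 6.56 in Step1.

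Among the 10 densest bins a single one was on the plus strand, at 39844251 in Gm26917. It had 57 and 14 reads in Step2, 69 and 79 in Step1, and 5 and 6 in Con. It was not called in any comparison (limma adjusted p = 0.211 in Step2 against Con, 0.103 in Step1 against Con and 0.754 in Step2 against Step1). The bin at 39847051 was not called either, with 22 and 46 reads in Step2, 72 and 88 in Step1, and 82 and 219 in Con.

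The number of calls depended strongly on single libraries and on the filter. With a filter of 5 reads limma called 2 of 67 members tested in Step1 against Con, 0 in Step2 against Con and 0 in Step2 against Step1, where 0.0992%, 0.0331% and 0% of all bins were called in that order. At an unadjusted p under 0.05 these were 20, 27 and 16 members, beside 21.1%, 20.1% and 8.53% of all bins. With 1 read per position 3 members could be tested and none was called (0, 1 and 0 at an unadjusted p under 0.05), although 1.88%, 18.8% and 36.2% of all bins were.

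In the same order of comparisons, limma called 6, 2 and 3 members without Step2 replicate 1, beside 1.3%, 0.911% and 0.781% of all bins. Without Step2 replicate 2 it called 6, 0 and 2, beside 1.3%, 0.26% and 0.651%. Without Step1 replicate 1 it called 1, 0 and 1, beside 0.391%, 0.521% and 0.521%, and without Step1 replicate 2 it called 2, 0 and 1, beside 0.521%, 0.521% and 0.391%. Without Con replicate 1 it called 11, 10 and 3, beside 14.7%, 9.11% and 2.21%, and without Con replicate 2 it called 1, 0 and 3, beside 0.391%, 0.781% and 2.21%. In these fits 10 to 24 of the 44 members, and 5.21% to 37.9% of all bins, had an unadjusted p under 0.05.

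Counted over all minus-strand ends of the copy, the bases before the ends differed between the groups. These words were chosen after the values were seen, so they are described with no test. The word CCT stood just before 7.81% and 6.05% of minus-strand ends in Step2, 10.5% and 11.8% in Step1, and 67.3% and 69.5% in Con. The word GCCA stood before 22.9% and 22% in Step2, 66.6% and 63.0% in Step1, and 1.83% and 2.43% in Con. The word GCCC stood before 33.7% and 40.0% in Step2, 7.13% and 7.09% in Step1, and 0% and 0.203% in Con. Of all 5815 positions of the copy, read on the minus strand, CCT stands before 1.55%, GCCA before 0.671% and GCCC before 0.946%.

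Much of this came from the tallest positions. In Step1, 2032 of the 2372 and 1645 of the 1910 ends after GCCA lay at 39844426. In Step2, 390 of the 410 and 668 of the 700 ends after GCCC lay at 39848608. Counting each position once made the differences smaller for CCT. The excess of GCCA in Step1 over Step2 and that of GCCC in Step2 over Step1 were not seen when positions were counted once. Among minus-strand positions with at least 3 ends, CCT stood before 23.1% of 52 and 16.1% of 62 in Step2, 28.8% of 66 and 21 of 70 in Step1, and 42.9% of 56 and 36.9% of 84 in Con. GCCA stood before 13.5% and 16.1% of these positions in Step2, 13.6% and 7 of 70 in Step1, and 5.36% and 4.76% in Con. GCCC stood before 5.77% and 4.84% of them in Step2, 6.06% and 4.29% in Step1, and 0% and 1.19% in Con. Among positions with 1 end, CCT stood before 8.70% and 11.4% in Step2, 6.49% and 5.64% in Step1, and 4.68% and 5.53% in Con. The order of the groups for CCT at repeated positions was thus not found at positions with 1 end. Over the rest of the genome outside piled-up windows, CCT stood before 9.41% and 8.82% of positions with 1 end in Step2, 8.33% and 8.50% in Step1, and 9.43% and 9.99% in Con. At positions of 10 or more ends there it stood before 9.51% and 9.93% in Step2, 12.5% and 11.1% in Step1, and 12.2% and 11.9% in Con, and at positions of 3 to 9 ends before 8.89% and 8.15% in Step2, 7.49% and 7.75% in Step1, and 9.06% and 9.43% in Con.

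Mapping quality moved with the group as well. Reads with a quality of at least 30 made up 94.1% and 93.4% of the copy's ends in Step2, 84.9% and 85.1% in Step1, and 67.6% and 68.1% in Con. Without position 39845256 the shares were 95.3% and 94.4% in Step2, 86.4% and 86.0% in Step1, and 85.5% and 85.9% in Con. The median read length was 47 bases in Step2, 47 in Step1 and 49 in Con. The part of mapping quality and read length in the differences between groups was not tested further than by the fits restricted to quality 30 or more, in which 6, 4 and 5 of 40 members were called in Step2 against Con, Step1 against Con and Step2 against Step1, beside 2.42%, 2.76% and 2.25% of all bins.

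The genes whose products transcribe and process rRNA were set beside the copy, from a list of RNA polymerase I subunits, its initiation and termination factors, and nucleolar processing proteins. Of 56 symbols, 36 gene bodies passed the count filter among 13811 protein-coding genes. None was called by limma in any comparison, where 0.0941% of genes were called in Step2 against Con, 0.123% in Step1 against Con and 0.0434% in Step2 against Step1. At an unadjusted p under 0.05 there were 6 list members in Step2 against Con, 0 in Step1 against Con and 1 in Step2 against Step1, or 16.7%, 0% and 2.78% of the list, beside 7.77%, 7.08% and 3.42% of all genes. The list's median log2 difference was 0.02 in Step2 against Con, -0.05 in Step1 against Con and 0.14 in Step2 against Step1, against -0.04, -0.04 and -0.00 over all genes.

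The smallest p in Step2 against Con belonged to Rrp9, a protein of the small-subunit processome, with 6 and 7 reads in Step2, 24 and 36 in Step1, and 22 and 70 in Con (log2 difference -1.90 ± 0.67, limma adjusted p = 0.465). Next came Ddx21, a nucleolar RNA helicase, with 5 and 13 reads in Step2 and 39 and 25 in Con (-1.29 ± 0.52, limma adjusted p = 0.545), and Ttf1, the factor that ends polymerase I transcription, with 22 and 22 in Step2 and 17 and 19 in Con (0.89 ± 0.38, limma adjusted p = 0.584). In Step1 against Con the smallest belonged to Exosc10, a nuclear exosome exonuclease (0.74 ± 0.43), Utp15 of the processome (1.24 ± 0.72) and Polr1b, the second largest polymerase I subunit (-0.71 ± 0.42), with limma adjusted p from 0.738 to 0.746. In Step2 against Step1 they were Rrp9 (-1.52 ± 0.68), Bop1, which acts in large-subunit maturation (0.74 ± 0.47), and Ttf1 (0.56 ± 0.37), with a limma adjusted p of 0.999 each.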

How the data were processed

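Per the labels' protocols, BLISS libraries were sequenced as single reads. The submitters' processing notes name the build mm10, Bowtie2, SAMtools and bedtools, without versions. The authors deposited 1 line per aligned read, with its start and end, its strand and a mapping quality score (11 to 42). The length of chromosome 17 in the GRCm38 reference used for sequences is that of mm10.

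The 5′ end of each read was counted in 10-kb windows, in 50-base bins by strand and in gene bodies of chromosomes 1 to 19 and X. A feature had to hold 10 reads or more in 2 libraries or more. The fit used limma 3.58.1 (voom, R 4.3.3) with 3 group means, with Benjamini-Hochberg adjustment over all features and library size taken outside 26 piled-up windows. Shares were compared with exact permutation tests. Scripts were tested on simulated data. The members and lists were chosen with earlier results of these data known. Named bins were the 10 densest and, per comparison and direction, the 5 with the largest called change. Named positions were the 8 densest, and named list genes those called or with the 3 smallest p.

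Alternatives were other scalings, filters, bin sizes, mapping qualities, runs, models and 1 read per position, and leaving out each library or dense positions. Replicate libraries differed beyond counting noise over the copy's bins in every group (chi-square test).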

Additional observations from a re-analysis of the deposited data

How the results depend on the processing

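The total of the copy in Step1 against Con passed 0.05 with trimmed means (log2 0.79), median of ratios (0.80), mapping quality of 30 or more (1.12), quality weights (0.80) and the replicate block (0.76). It turned negative with 1 read per position (-0.24), without the densest position (-0.24) and without positions of 10 or more reads (-0.11, an alternative chosen after seeing the data, like leaving out the 8 densest). Without single libraries it ran from 0.43 to 1.17. Step2 against Con turned with 1 read per position (-0.13) and without positions of 10 or more reads (-0.20), and ran from -0.17 (without Con replicate 1) to 0.58 without single libraries. Step2 against Step1 turned with 1 read per position (0.11), without the densest position (0.38) and without the 8 densest (0.12). It passed in the 2-group fit (-0.59), with the replicate block (-0.57) and without either Con library, and ran from -0.82 to -0.36 without single libraries. The cause of these shifts was not tested, except where a left-out position or library is itself the change.

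Members called by limma, for Step1 against Con, Step2 against Con and Step2 against Step1 in that order, are given with the share of all bins called in the same fit. They were 17, 20 and 8 with the replicate block (18.6%, 18.0% and 7.81% of all bins), 2, 0 and 0 with a filter of 5 reads (0.0992%, 0.0331% and 0%), 10, 14 and 5 with 20 reads (12.3%, 15.8% and 6.73%), and 0, 0 and 0 with 1 read per position (1.88%, 18.8% and 36.2%), where 3 passed the filter (0, 1 and 0 at an unadjusted p under 0.05). They were 11, 23 and 4 with limma-trend (9.24%, 19.1% and 3.91%), 11, 12 and 5 in the first run (15.7%, 15.1% and 8.29%), 11, 15 and 6 in the second (15.3%, 22.2% and 7.39%), 4, 1 and 3 in 100-base bins (0.843%, 0.361% and 1.08%), 6, 8 and 2 with trimmed means (2.21%, 2.86% and 1.3%), and 19, 16 and 6 with the copy's own reads as library size (32.2%, 7.68% and 2.08%). Without single libraries the members called ran from 1 to 11, 0 to 10 and 1 to 3. With 1 read per position the log2 difference of the bin at 39844401 was -0.016 in Step2 against Con. No list gene was called under any alternative run.

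The plus-strand share in Step1 against Con turned to 4.05 points without the densest position and ran from -6.49 to -1.98 without single libraries. In Step2 against Con it ran from -5.44 to 0.61, and in Step2 against Step1 it turned to -3.98 with 1 read per position and -6.04 without the densest position, and ran from -1.21 to 4.85. The Gm42418 share turned in Step2 against Con with 1 read per position (-2.29).

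Groups share replicate numbers, but deviations of same-numbered libraries correlated at 0.00 to 0.01 over windows. Over the 44 members they correlated at -0.13 between Step2 and Step1, 0.24 between Step2 and Con and -0.28 between Step1 and Con. The numbers were therefore not taken as pairs in the main fit. These correlations do not settle whether same-numbered libraries share a batch. With the replicate block 18.6% of all bins were called in Step1 against Con, 18.0% in Step2 against Con and 7.81% in Step2 against Step1. In the main fit these shares were 2.34%, 2.99% and 2.34%. The exact tests of shares have a smallest p of 0.33, and 356 of the 400 members held too few ends to be fitted.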
